A study of Mus musculus with 16 samples.

Results

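The 5 male Kl/Kl kidney libraries of the series fell into 2 subgroups, Kl/Kl males 1 and 4 (library numbers 12 and 9) and Kl/Kl males 2, 3 and 5 (library numbers 14, 16 and 10), which are described here gene by gene. The members are these 5 of the 16 libraries of the series, and they were chosen by their measured values: males 1 and 4 correlated with each other and less with the other Kl/Kl males. Every difference between the subgroups is therefore a description of 5 libraries and carries no test. Polyadenylated RNA came from perfused, flash-frozen kidneys of 129S1/SvlmJ mice congenic for the Kl mutation. The Kl/Kl animals were homozygous and labelled as having renal disease, and Kl/Kl males 1, 2 and 3 were 45 days old, male 4 was 44 and male 5 was 47. The 3 male controls were +/Kl heterozygotes of 45, 45 and 46 days with healthy renal function, so the controls carry 1 copy of the mutation. The female libraries, used only as libraries that took no part in the choice, came from 4 +/+ controls of 45 to 49 days and 4 Kl/Kl mice of 45 to 54 days. The labels do not say that each library represents its own animal, and the p-values given for Kl/Kl against control speak only of the spread among these libraries, which may be technical. They name no subgroup, and no food intake, weight or time of dissection is given in the sources used here.

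Klotho is a membrane protein of the kidney tubule that acts with FGF receptors as the receptor of the bone hormone FGF23, which lowers phosphate reabsorption and active vitamin D. Mice without it develop high phosphate, calcification and wasting. In fasting, tissues shift from glucose to fat: the nuclear receptor PPAR-alpha raises enzymes of fatty acid oxidation, FoxO factors that insulin normally holds out of the nucleus become active, and glucocorticoids add to both. The acute phase response is a separate programme, in which cytokines raise fibrinogen, complement and protease inhibitors, chiefly in liver but also in injured kidney.

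Values are TPM, read counts relative to gene length and library total, as the authors deposited them. The length used appears from the values to be the genomic span, introns included, which no source used here states, so levels are compared between libraries and not between genes. Differences are on the log2(TPM + 1) scale, and a fold is a ratio of mean TPM. A gene whose mean over the male libraries reached 1 TPM is said to separate the subgroups where their means differed by at least 1 on the log2 scale and no library of one subgroup overlapped the other.

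The estimated depth of males 1 and 4 was 24.4 and 25.0 M reads, below the 28.8 to 31.8 M of males 2, 3 and 5. The mitochondrial genome took 35.4% and 37.0% of the values in males 1 and 4, 41.1% to 44.8% in males 2, 3 and 5, and 40.9% and 42.5% in male controls 1 and 2. The part of depth and mitochondrial share in the differences below was not tested. Male control 3 stood apart from the other controls, with 54.3% mitochondrial signal and r of 0.944 and 0.945 with them, so controls 1 and 2 are the reference here and control 3 is given where it matters. Kl itself, on chromosome 5 (mm39, 150876072 to 150917283), stood at 0.0235 TPM in male 1, 0.186 in male 4 and 0.0390, 0.0452 and 0.265 in males 2, 3 and 5, against 15.1, 11.4 and 4.14 in controls 1, 2 and 3. The targeted gene thus did not separate the subgroups, and all 5 Kl/Kl libraries were far below the controls. Umod, the defining transcript of the thick ascending limb, lay between 233 and 306 TPM in all 5 Kl/Kl males and at 241 and 207 in controls 1 and 2.

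Over the 8439 genes whose mean reached 1 TPM in the 8 male libraries, Pearson's r was 0.969 between males 1 and 4 and 0.981 to 0.988 among males 2, 3 and 5. Between the subgroups it was 0.955 to 0.967. With controls 1 and 2, males 1 and 4 correlated at 0.901 to 0.909 and males 2, 3 and 5 at 0.947 to 0.957. Males 1 and 4 were thus the Kl/Kl libraries farthest from the controls, and they were also less alike than males 2, 3 and 5 were among themselves. Their closeness to each other was a narrow one: over genes whose mean reached 5 TPM, r between males 1 and 4 was 0.954, just under the highest value between the subgroups, 0.956. All of these values share the same 8 libraries and genes and are descriptions.

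**Figure D1:**
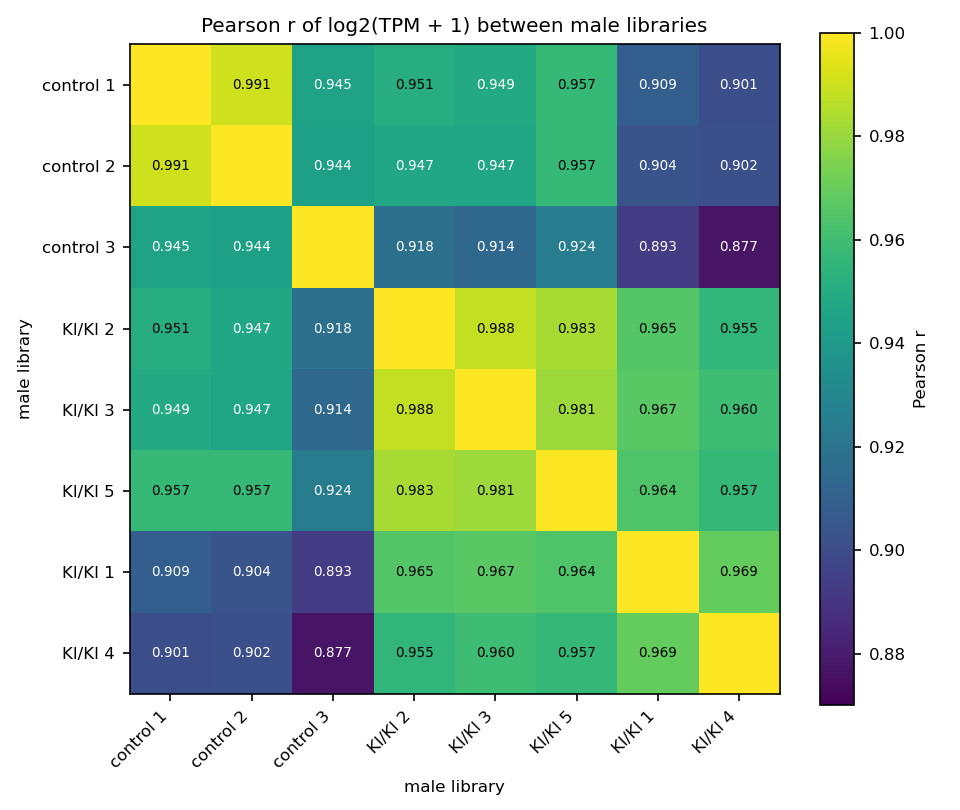
Pearson correlation of log2(TPM + 1) between each of the 8 male libraries and every other, over genes whose mean reached 1 TPM; colour and number give r. Males 1 and 4 show 0.969 with each other and at most 0.967 with the other Kl/Kl males, and their values with all 3 controls are the lowest of the Kl/Kl rows.

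In total 165 genes separated the subgroups, 125 higher in males 1 and 4 (1.48% of the genes compared) and 40 lower (0.474%). Of these, 98 and 28 were protein-coding. Without the size condition, 3529 genes did not overlap between the subgroups, 2227 of them higher in males 1 and 4, and the median difference of all genes was 0.04. When values were rescaled to nuclear genes only, so that the mitochondrial share no longer counts, 83 genes were higher and 66 lower, or 55.7% higher where the deposited scale gave 125 and 40. That scale lowered the median of all genes from 0.04 to -0.07. With median-of-ratios scaling, where that median was -0.009, 100 genes were higher and 43 lower, or 69.9% higher. The size of the excess of higher genes thus depends on the scaling. Fitm2, a lipid droplet protein (1.02), and Glrx, a glutaredoxin (1.03), stood just inside the threshold, and Nr1d1, a clock repressor (0.99), and Klf9, a glucocorticoid-responsive factor (0.98), just outside.

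The 125 higher genes were set beside controls 1 and 2. In 65 the order was controls, then males 2, 3 and 5, then males 1 and 4, with no overlap. In another 47, males 2, 3 and 5 overlapped the controls and only males 1 and 4 lay outside them. Of the 40 lower genes, 22 followed the graded order and 11 were outside the controls in males 1 and 4 alone. No share of such placements over all genes is given, so these counts describe the separating genes without a background. With control 3 counted among the controls the graded genes numbered 62 and 6, so the graded order of the lower genes rests on leaving out that library. Against controls 1 and 2, 378 genes were higher and 380 lower in males 1 and 4 by at least 1 without overlap, and 67 and 209 in males 2, 3 and 5. Both sets use the same controls, and 2 libraries overlap others less readily than 3 do.

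The upstream sequence of 4 genes that were higher in males 1 and 4 is shown because their values carry the pattern: Txnip and Depp1 for the metabolic genes, and Fga and C3 for the acute phase genes. Each line gives the 250 bases before the RefSeq start in GRCm38.p6, 5′ to 3′ on the strand of the gene: Txnip at chr3:96557707-96557956 (+), Depp1 at chr6:116650434-116650683 (+), Fga at chr3:83025903-83026152 (+) and C3 at chr17:57228137-57228386 (-). Capitals mark letters that match 1 of 8 motifs searched on both strands.
Txnip: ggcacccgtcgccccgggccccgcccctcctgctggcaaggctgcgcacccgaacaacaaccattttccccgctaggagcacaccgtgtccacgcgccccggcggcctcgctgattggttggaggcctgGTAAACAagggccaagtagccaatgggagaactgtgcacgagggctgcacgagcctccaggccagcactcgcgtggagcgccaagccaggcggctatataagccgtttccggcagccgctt
Depp1: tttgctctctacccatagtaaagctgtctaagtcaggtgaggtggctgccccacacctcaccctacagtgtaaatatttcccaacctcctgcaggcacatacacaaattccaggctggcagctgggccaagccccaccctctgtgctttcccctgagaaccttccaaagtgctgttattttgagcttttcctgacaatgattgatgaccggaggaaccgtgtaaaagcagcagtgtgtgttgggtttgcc
Fga: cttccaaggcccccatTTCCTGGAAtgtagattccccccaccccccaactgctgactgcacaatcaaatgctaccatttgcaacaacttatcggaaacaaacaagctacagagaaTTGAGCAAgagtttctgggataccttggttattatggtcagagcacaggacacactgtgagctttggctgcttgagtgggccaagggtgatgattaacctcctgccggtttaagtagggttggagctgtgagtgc
C3: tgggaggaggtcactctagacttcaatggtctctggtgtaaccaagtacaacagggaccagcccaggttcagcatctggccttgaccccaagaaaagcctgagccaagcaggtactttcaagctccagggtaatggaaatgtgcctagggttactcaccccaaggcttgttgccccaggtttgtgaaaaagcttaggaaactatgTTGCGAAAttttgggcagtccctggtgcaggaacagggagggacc
The match in Txnip is the FOXO motif TGTTTAC read on the other strand, 121 bases before the start. Fga holds the STAT motif TTCNNNGAA at 234 bases and the C/EBP motif TTGCNNAA, on the other strand, at 135 bases, and C3 holds the C/EBP motif at 45 bases. Depp1 held none of the 8 in this window.

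Promoters were found for 79 of the genes higher in males 1 and 4 (91 starts) and 23 of the lower genes (30 starts). FOXO letters were in 5 of the 91 starts (5.49%) and 3 of the 30 (10.0%), against 2.30% of the starts of all genes compared and 3.17% of all promoters. C/EBP letters were in 10 of 91 (11.0%) against 7.81% and 9.56%, STAT in 4 (4.40%) against 5.4% and 7.02%, and AP-1 (TGANTCA) in 5 (5.49%) against 4.24% and 6.75%. The HNF4 motif CAAAGTCCA, the NF-kB core, the PPAR direct repeat and the HNF1 palindrome were in 0 of the 91 and 0 of the 30, and in 0.384%, 0.356%, 0.0335% and 0.00913% of all promoters. The motifs can share starts, the C/EBP and AP-1 letters for example in 275 promoters, and the counts are small.

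The widest differences were in genes of the insulin, FoxO and nutrient-sensing response. Depp1, a FoxO-induced autophagy protein (ENSMUSG00000048489, mm39 chromosome 6, 116627570 to 116629756), stood at 157 and 76.0 TPM in males 1 and 4, at 3.25, 30.9 and 11.4 in males 2, 3 and 5, and at 2.00 and 2.48 in controls 1 and 2. Its mean was 7.66-fold higher in males 1 and 4, a difference of 3.21, and the 3 groups did not overlap, although males 2 and 3 lay far apart. Eif4ebp3, a translation repressor of the 4E-BP family, had a difference of 3.44, with 154 and 78.1 TPM in males 1 and 4 against 6.73 to 15.0 in males 2, 3 and 5. It overlaps a read-through transcript with Ankhd1, so its reads are uncertain.

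Igfbp1, an insulin-repressed binding protein of insulin-like growth factors, stood at 84.3 and 29.8 TPM in males 1 and 4 and at 3.00, 10.0 and 15.4 in males 2, 3 and 5. Ddit4, a stress-induced brake on mTORC1, stood at 91.2 and 116 TPM against 11.2 to 23, with controls 1 and 2 at 25.8 and 12.1, inside or beside the range of males 2, 3 and 5. Irs2, an insulin receptor substrate that FoxO raises, stood at 20.5 and 11.0 TPM against 1.97 to 3.99. For Ddit4 and Irs2, then, males 2, 3 and 5 overlapped the controls and males 1 and 4 did not. Sesn2, a sestrin that restrains mTORC1, followed the same placement, with 8.58 and 8.03 TPM against 1.90 to 2.65.

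Among 28 measured fasting and PPAR-alpha targets, 10 separated, all higher in males 1 and 4 (background 1.48%). The same background, 1.48% higher and 0.474% lower, applies to every list below, and the median difference of all genes was 0.04. In 27 of the 28 the difference was positive, with a median of 0.72. Rescaled to nuclear genes, 8 of 27 separated and 24 were positive, with a median of 0.58. Without male 4, 5 separated, and without male 1, 17. Pdk4, the kinase that shuts off pyruvate oxidation (chromosome 6, 5483351 to 5496310), stood at 10.6 and 71.0 TPM in males 1 and 4, at 2.12, 4.46 and 1.81 in males 2, 3 and 5, and at 2.75 and 1.99 in controls 1 and 2. Males 2, 3 and 5 overlapped the controls for Pdk4, and its mean was 14.6-fold higher in males 1 and 4.

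Txnip, a glucose-uptake inhibitor (chromosome 3, 96465273 to 96469200), stood at 439 and 850 TPM against 93.3 to 179, with controls at 121 and 101 inside that range. Angptl4, an inhibitor of lipoprotein lipase, stood at 35.0 and 52.8 TPM against 6.84 to 22.3, again overlapping the controls in males 2, 3 and 5.

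Cyp4a14, a microsomal fatty acid hydroxylase, stood at 84.8 and 315 TPM in males 1 and 4, at 45.5, 59.6 and 49.1 in males 2, 3 and 5, and at 0.169 and 0.357 in controls 1 and 2. Reads of the near-identical Cyp4a genes, as of the Acot genes, may be shared. Acadm, Acadl, Acadvl, Hadha and Hadhb, enzymes of mitochondrial oxidation, did not separate: Acadm, for example, stood at 25.6 and 36.7 TPM against 28.7 to 30.3. These enzymes, and C4b, Cfb, the C1q chains, Mpo, Ltf, Camp, Csf3r, Lcn2, Alb and Ahsg below, were picked for mention after their values were seen.

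Pnpla2, the adipose triglyceride lipase and a FoxO target, stood at 124 and 104 TPM in males 1 and 4, at 25.7 to 36.3 in males 2, 3 and 5, and at 19.5 and 19.4 in controls 1 and 2. Plin4, a lipid droplet coat protein, stood at 5.42 and 12.0 TPM against 2.44 to 3.89. Both were graded from control. In gluconeogenesis 1 of 13 genes separated, Pck1, the cytosolic entry enzyme, with 929 and 1531 TPM against 483 to 769 and controls at 473 and 898. With nuclear rescaling or median-of-ratios scaling, or with male 2, 3 or 4 left out, it no longer separated.

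**Figure D2:**
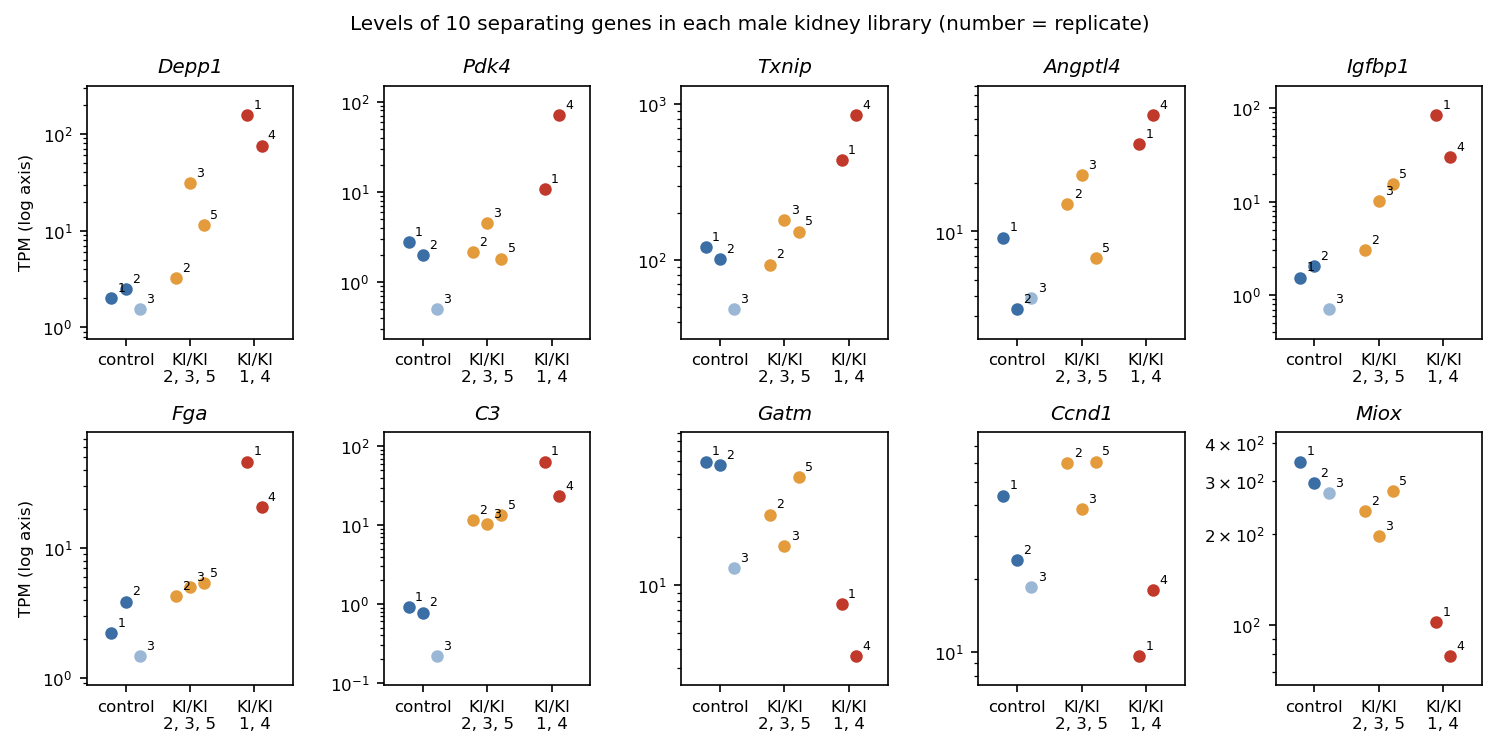
TPM on a log axis of 10 separating genes in each of the 8 male libraries, by controls (control 3 in light blue), Kl/Kl males 2, 3 and 5, and Kl/Kl males 1 and 4; each point is 1 library with its replicate number. Males 1 and 4 are the highest points for the first 7 genes and the lowest for Gatm, Ccnd1 and Miox; male 4 is the higher of them for Pdk4, Txnip and Angptl4 and male 1 for Depp1, Igfbp1, Fga and C3.

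Of 12 glucocorticoid-induced genes, 4 separated (background 1.48%), all higher: Pdk4, Cdkn1a, Angptl4 and Errfi1. The lists share genes, so this is not a separate count. Pdk4 is also in the fasting list, Angptl4 is described with it above, and Cdkn1a is also in the tubular injury and p53 lists. All 12 differences were positive, with a median of 0.88, and under both other scalings 11 were. Errfi1, a feedback inhibitor of the EGF receptor, stood at 56.2 and 90.1 TPM against 21.0 to 27.7, but controls 1 and 2, at 59.2 and 47.9, overlapped males 1 and 4. Of 12 immediate early genes, which respond within minutes to stress or growth factors, 3 separated, all higher (background 1.48%). All 12 differences were positive, with a median of 0.72. Under both other scalings all 12 stayed positive and 2 separated, and without male 1, 5 separated. Zfp36, an mRNA decay factor, stood at 36.9 and 54.2 TPM in males 1 and 4 and at 16.7, 10.9 and 11.8 in males 2, 3 and 5, beside controls at 15.5 and 11.2. Fosl2 and Junb, subunits of AP-1, were 3.49-fold and 2.20-fold higher. Cebpd, a factor of the acute phase and glucocorticoid response, stood at 28.2 and 16.0 TPM against 2.29 to 9.27.

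Of 15 acute phase and complement genes, 6 separated (background 1.48%), all higher in males 1 and 4: Fga, Lrg1, Serpina3n, C3, Fgg and C4b. The same number separated under median-of-ratios and nuclear scaling, and 3 at a mean of at least 5 TPM. Fga, the fibrinogen alpha chain (ENSMUSG00000028001, chromosome 3, 82933383 to 82940935), stood at 46.5 and 20.6 TPM in males 1 and 4, at 4.27, 5.01 and 5.34 in males 2, 3 and 5, and at 2.21 and 3.85 in controls 1 and 2. The fold was 6.89, and Fgg, the gamma chain, was 5.93-fold higher. All 3 groups were apart for both chains.

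C3, the central complement component (chromosome 17, 57510970 to 57535137), stood at 64.1 and 23.6 TPM in males 1 and 4, at 11.7, 10.2 and 13.4 in males 2, 3 and 5, and at 0.911 and 0.779 in controls. All Kl/Kl males were thus far above control, with males 1 and 4 at the top. Lrg1, a leucine-rich acute phase glycoprotein, stood at 12.7 and 21.9 TPM against 3.07 to 4.00. Serpina3n, a protease inhibitor, was 4.63-fold higher.

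C4b also separated, at 6.89 and 6.10 TPM in males 1 and 4 against 2.06 to 2.35 in males 2, 3 and 5. The other measured complement genes did not follow. The difference was -0.18 for Cfb, an alternative pathway protease, and between -0.05 and -0.04 for the 3 C1q chains, which macrophages make. Over the whole list 9 of 15 differences were positive, with a median of 0.41; over the 14 measured after either other scaling, 7 were, with medians of 0.16 and 0.10.

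Of the immune cell genes that passed the filter on low values, none separated the subgroups. None of 7 macrophage and monocyte genes, 6 chemokine and cytokine genes, 8 interferon-induced genes, 10 antigen presentation genes and 3 lymphocyte and plasma cell genes met the criterion in either direction. At the background of 1.48% higher and 0.474% lower, 0 is usual for lists this short, so these counts do not set immune genes apart. The summed level of the macrophage genes was 28.3 and 34.9 TPM in males 1 and 4, 22.5 to 37.3 in males 2, 3 and 5, and 18.2 and 14.7 in controls 1 and 2. Cd14, an endotoxin coreceptor that tubule cells also make, stood at 9.85 and 12.3 TPM against 5.83 to 6.36, a difference of 0.76 that fell short of the threshold. Of the neutrophil genes 0 passed that filter, but their summed level did follow the subgroups. Their summed level was 6.79 and 3.35 TPM in males 1 and 4, 0.926 to 1.38 in males 2, 3 and 5 and 0.210 and 0.308 in controls 1 and 2, led by S100a8, a calgranulin, at 3.58 and 1.65 TPM in males 1 and 4, a difference of 1.18 with no overlap. Mpo, a granule enzyme of neutrophil precursors, was at or under 0.00814 TPM. Not every member followed the sum. Ltf was lower, at 0.0131 and 0.0130 TPM in males 1 and 4 against 0.0188 to 0.0252, and Camp and Csf3r overlapped. In bulk kidney, fewer cells of a type and less RNA per cell cannot be told apart.

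Tubular injury genes mostly did not separate either, which holds for most genes at the background of 1.48% higher. Only Cdkn1a, the p21 cell cycle inhibitor, did among 15, with 8.10 and 14.3 TPM in males 1 and 4, 3.03, 3.12 and 1.21 in males 2, 3 and 5, and 1.98 and 0.535 in controls 1 and 2. The median difference of the list was -0.03, and -0.10 and -0.18 with the other scalings. Lcn2, the injury marker NGAL, stood at 6.67 and 7.17 TPM against 2.49 to 4.18, with controls at 0.740 and 0.590; its difference was 0.81. Spp1, osteopontin, overlapped between the subgroups: 275 and 183 TPM against 198 to 248, with all Kl/Kl males above the controls at 83.5 and 64.3. So the Kl/Kl males were above control for Lcn2 and Spp1 in both subgroups.

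Of 11 p53 and senescence genes 3 separated, all higher: Cdkn1a, Trp53inp1, a p53-induced autophagy regulator (3.49-fold), and Btg2, an antiproliferative gene (2.18-fold), which did not separate under either other scaling. Ccnd1, cyclin D1, was lower in males 1 and 4. It stood at 9.64 and 17.9 TPM there, at 59.5, 38.6 and 60.5 in males 2, 3 and 5, and at 43.9 and 23.9 in controls, so males 2, 3 and 5 overlapped the controls and males 1 and 4 were below both. Of 16 matrix genes 2 separated on the deposited scale: Ccn2, connective tissue growth factor (104 and 89.4 TPM against 25.5 to 53.6), and Lox, the collagen cross-linking enzyme (2.92-fold), which did not separate under either other scaling. Without male 1 or male 5, 1 matrix gene separated. Of 17 glycolysis and hypoxia genes 2 separated, both higher: Bnip3, a mitophagy receptor (2.92-fold), and Ndrg1, a stress-induced differentiation gene (2.07-fold). In that list 10 differences were positive, with a median of 0.02, and Ndrg1 did not separate under either other scaling. Without male 2 or male 4, 1 gene of the list separated. Ctsl, the lysosomal protease cathepsin L, stood at 267 and 162 TPM against 41.7 to 53.7, with controls at 24.8 and 26.9. Ren1, renin, stood at 60.1 TPM in male 1 and 14.8 in male 4 against 5.39 to 12.9, so male 1 alone carried most of its difference.

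Several of the leading genes lower in males 1 and 4 are enzymes and transporters of the proximal tubule, the segment that reclaims most filtered solutes. Gatm, the first enzyme of creatine synthesis (chromosome 2, 122424948 to 122441785), stood at 7.60 and 3.60 TPM in males 1 and 4, at 27.7, 17.6 and 47.7 in males 2, 3 and 5, and at 59.8 and 56.8 in controls 1 and 2. Its mean in males 1 and 4 was 18.1% of that in males 2, 3 and 5. Control 3, at 12.8 TPM, was below males 2, 3 and 5. Miox, which opens the inositol ring, stood at 102 and 78.9 TPM against 196 to 277, with controls 1 and 2 at 347 and 295.

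Acy3, an aminoacylase, stood at 15.2 and 21.5 TPM in males 1 and 4 and at 55.7, 25.1 and 101 in males 2, 3 and 5, far below the controls at 645 and 807. Hao2, a peroxisomal hydroxy acid oxidase, was lower at 17.8 and 7.37 TPM against 30.4 to 54.8, but the controls at 25.1 and 17.8 overlapped males 1 and 4. Slc34a3, the phosphate cotransporter NaPi-IIc and the only member of the mineral list of 12 that separated, stood at 4.72 and 4.11 TPM against 7.22 to 12.9, with controls 1 and 2 at 12.1 and 11.1 and control 3 at 4.66, between males 1 and 4. Without male 2 or male 5, 0 genes of that list separated. The other leading lower genes were Fam151a, Ak4, an adenylate kinase, Nat8f1 and Nat8f5, acetyltransferases of the Nat8 family that may share reads, Idh1, the cytosolic isocitrate dehydrogenase, Hsd3b2, a steroid dehydrogenase, Slc10a5, Anks4b, a brush border scaffold, Akr1c21, a male-biased ketosteroid reductase, and Car12, a membrane carbonic anhydrase. Their means in males 1 and 4 ranged from 19.0% to 39.8% of those in males 2, 3 and 5.

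As a list, the 38 proximal tubule genes were mostly lower in males 1 and 4, few of them by the threshold. Their mean log2(TPM + 1) was 3.55 and 3.52 there and 3.62 to 4.02 in males 2, 3 and 5. 2 separated lower and 1, Pck1, higher; 9 differences were positive, with a median of -0.21 (-0.27 and -0.34 with the other scalings, where Pck1 did not separate). The summed level was 1977 and 2684 TPM in males 1 and 4 and 1612 to 2058 in males 2, 3 and 5. Pck1 alone gave 929 and 1531 TPM of these sums in males 1 and 4 and 483 to 769 in males 2, 3 and 5. The sums therefore do not describe the other genes of the list. Amino acid metabolism split, with 4 of 30 genes higher and 4 lower: Gldc, of glycine cleavage, and Glud1, glutamate dehydrogenase, were 2.44-fold and 2.33-fold higher, while Gatm, Hao2 and Acy3 were lower. With nuclear rescaling 2 were higher and 4 lower, and without male 4 or male 5, 2 were higher. None of 25 nuclear oxidative phosphorylation genes separated, and 3 differences were positive (median -0.14). The 13 mitochondrially encoded genes were all lower, by less than the threshold, with a median of -0.27. Drug-metabolising enzymes had 3 of 32 higher, Cyp2d9, Cyp4b1 and Cyp2e1, and 1 lower, Akr1c21; with nuclear rescaling it was 1 and 2, and without male 4 or male 1, 3 or 2 were lower. These 4 also belong to the male-biased kidney genes, whose summed level was 268 to 653 TPM in all 5 Kl/Kl males and 5356 and 5098 in controls 1 and 2.

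**Figure D3:**
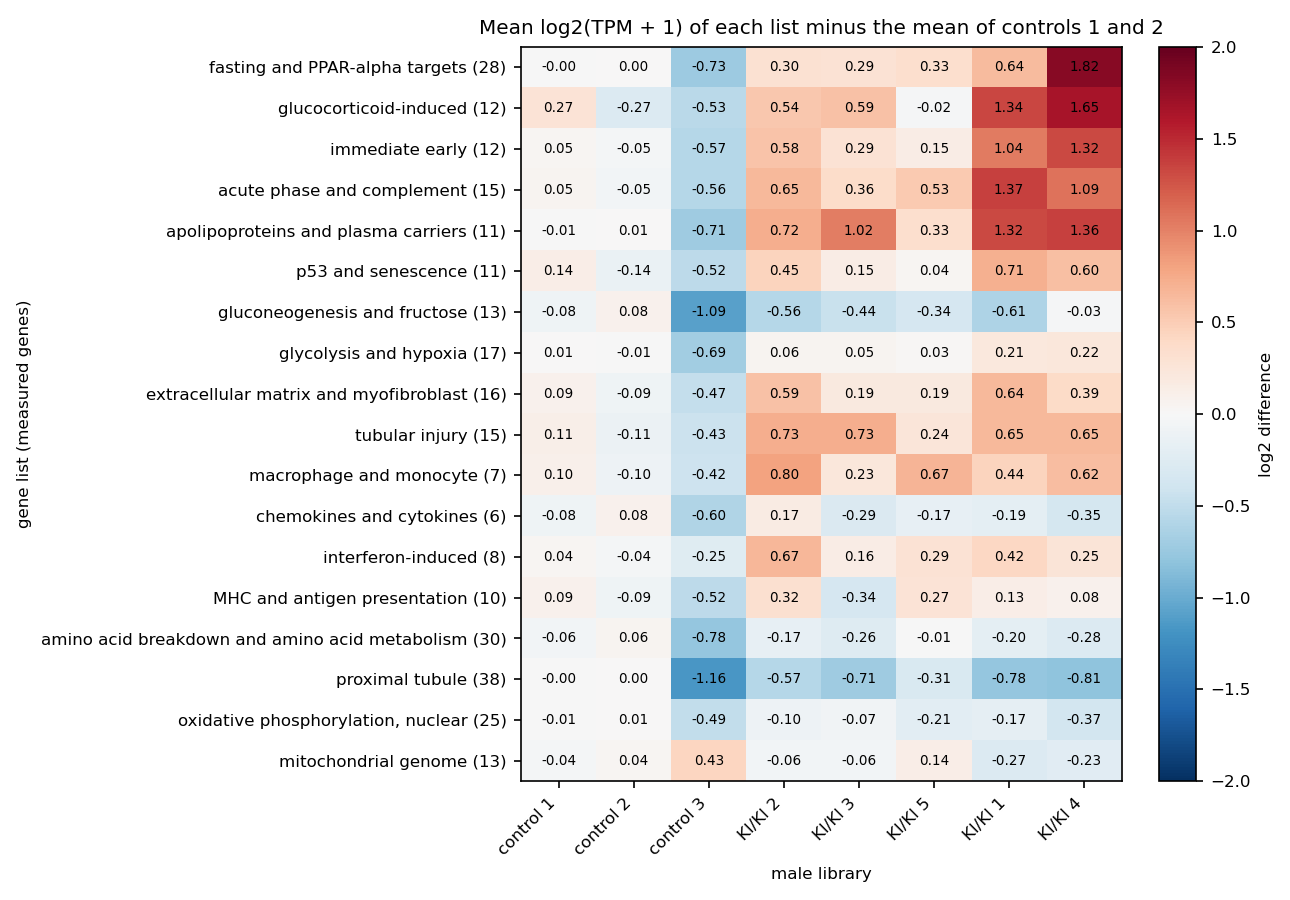
Mean log2(TPM + 1) of 18 gene lists in each male library, minus the mean of controls 1 and 2; the number of measured genes stands beside each list and colour and number give the difference. The fasting list reads 0.64 and 1.82 in males 1 and 4 against 0.29 to 0.33 in males 2, 3 and 5, while the macrophage list reads 0.44 and 0.62 against 0.23 to 0.80.

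Apolipoproteins and other plasma carriers had 2 of 11 genes separated, both higher: Apoa1, the main protein of HDL (8.36 and 14.1 TPM against 1.72 to 4.62), and Apoc3, an inhibitor of triglyceride clearance (16.4 and 33.2 against 8.17 to 16.1). Under either other scaling, or without male 2 or male 5, 1 of the 11 separated, and Apoc3 was the gene lost under both scalings. These 2 are also the separating genes of the liver list, whose summed level was 37.0 and 58.3 TPM in males 1 and 4, 17.1 to 29.8 in males 2, 3 and 5, and 25.9 and 37.5 in controls 1 and 2. The defining liver transcripts were near 0 throughout: Alb stood at 0.0449 and 0.122 TPM in males 1 and 4 and at 0.0971 to 0.140 in males 2, 3 and 5, and Ahsg at or under 0.00539.

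Other neighbouring tissue did not follow the subgroups. The summed adrenal cortex genes were 78.0 TPM in male 2, 19.3 in male 1 and 4.09 to 4.58 in males 3, 4 and 5, with the steroid hydroxylase Cyp21a1 at 25.0 TPM in male 2. The adipocyte genes summed to 49.1, 34.3 and 43.9 TPM in males 1, 2 and 3 and to 25.5 and 13.0 in males 4 and 5. Haemoglobin and other blood genes summed to 212 and 125 TPM in males 1 and 4 and to 211, 43.3 and 132 in males 2, 3 and 5. Their part in the single genes above was not tested.

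Males 1 and 4 differed from each other in the metabolic lists. Over all genes compared, male 4 was above male 1 in 32.9%, with a median of -0.10. In the fasting and PPAR-alpha list male 4 was above male 1 in 27 of 28 genes, with a median of 1.23, and in all 10 that separated. In gluconeogenesis and fructose metabolism it was above in 12 of 13. In the acute phase and complement list it was above in 5 of 15 (median -0.15), close to the share and the median of all genes, and among the 6 that separated only for Lrg1. In all, 171 genes were at least 1 apart between males 1 and 4, against 63 to 109 between any 2 of males 2, 3 and 5. Among the 125 higher genes, 12 were at least 1 higher in male 4 and 12 at least 1 higher in male 1.

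**Figure D4:**
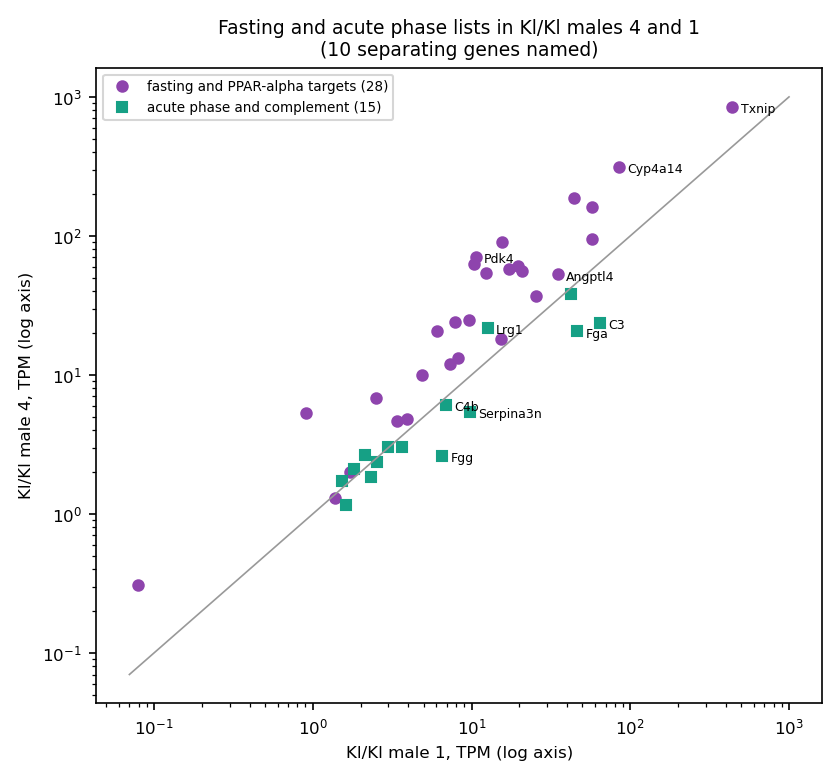
TPM in Kl/Kl male 4 against Kl/Kl male 1, both on log axes, for the 28 fasting and PPAR-alpha targets (circles) and the 15 acute phase and complement genes (squares); the line marks equal levels. 27 of the 28 circles and 5 of the 15 squares lie above the line, where male 4 was above male 1 in 32.9% of all genes compared.

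The female libraries gave a view from samples that took no part in the choice. Female Kl/Kl replicate 3 was left out because its kidney tubule genes were nearly absent: the mean log2(TPM + 1) of 38 proximal tubule genes was 0.46 there and 3.92 to 4.09 in the other female Kl/Kl libraries. The 125 higher genes had a mean log2(TPM + 1) of 2.72, 2.91 and 3.05 in female Kl/Kl replicates 1, 2 and 4 and 2.63 to 2.76 in female controls, while it was 4.23 and 4.26 in males 1 and 4 and 2.75 to 2.85 in males 2, 3 and 5. The 40 lower genes had 3.90, 3.56 and 3.75 in the female Kl/Kl replicates and 3.86 to 4.01 in female controls, against 2.26 and 2.22 in males 1 and 4 and 3.53 to 3.61 in males 2, 3 and 5. The tables of the sexes were scaled separately, so levels are set side by side only. 

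**Figure D5:**
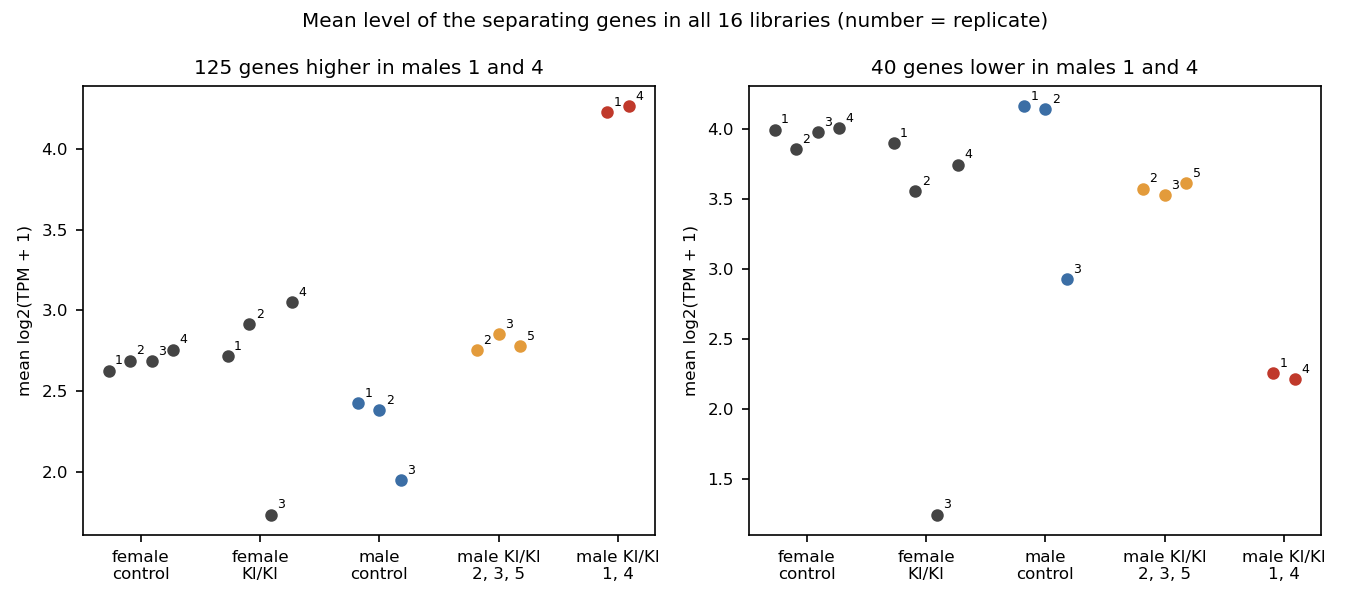
Mean log2(TPM + 1) of the 125 genes higher (left) and the 40 genes lower (right) in Kl/Kl males 1 and 4, in each of the 16 libraries; each point is 1 library with its replicate number, and the 2 sexes were scaled in separate tables. Males 1 and 4 lie at 4.23 and 4.26 on the left and 2.26 and 2.22 on the right; female Kl/Kl replicate 3, at 1.74 and 1.25, lacks tubule genes and was left out of the test.

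In limma's test of Kl/Kl against control in females (3 against 4 libraries, 8748 genes), 5 genes rose (0.0572%) and 4 fell (0.0457%), and with the replicate number as a block 7 rose and 10 fell. Kl fell by 3.63 (SE 0.25, adjusted p = 0.00157). Of the 125 higher genes 105 passed the filter, 0 rose and 0 fell by limma; at an unadjusted p under 0.05, 28 were higher and 2 lower, beside 1212 and 402 of all genes. Of the 40 lower genes, all of which passed, 0 rose and 0 fell, and 1 fell with the block; unadjusted, 3 were higher and 9 lower. Without female Kl/Kl replicate 4, 1 of the higher and 1 of the lower genes rose and 1 of each fell, and without female control 2, 1 of the higher genes rose.

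The female groups did not overlap, with Kl/Kl higher, in 12.2% of all genes and in 14 of the 105 (13.3%), about the same share. With Kl/Kl lower they did not overlap in 3.9% of all genes and in 5 of the 40 lower genes (12.5%). C3 stood at 10.5 to 28.8 TPM in female Kl/Kl and at 2.84 to 6.46 in female controls (limma, log2 difference 1.78, SE 0.34, adjusted p = 0.0852). Cdkn1a stood at 2.54 to 3.54 against 0.760 to 2.06 TPM (0.93, SE 0.18, adjusted p = 0.0902), and Lrg1 at 2.84 to 5.52 against 1.26 to 1.87 TPM (0.94, SE 0.17, adjusted p = 0.0852). None of the 3 passed the threshold in this fit, but Cdkn1a did without female control 2 (limma adjusted p = 0.027) and Lrg1 without female Kl/Kl replicate 4 (limma adjusted p = 0.0458). These were the lowest of the alternative fits. The highest limma adjusted p among them was 0.745 for Cdkn1a and 0.729 for Lrg1. Pdk4 and Depp1 overlapped: Pdk4 stood at 5.66 to 10.8 TPM in female Kl/Kl and 2.82 to 18.1 in female controls, and Depp1 at 3.47 to 4.30 against 3.23 to 7.87. Some other genes described above did not overlap, in the direction of males 1 and 4, while others, such as Txnip and Igfbp1, did overlap. Plin4 stood at 1.14 to 3.69 TPM in female Kl/Kl against 0.528 to 1.05 in female controls and Apoa1 at 0.932 to 2.17 against 0.558 to 0.826. Miox stood at 227 to 368 against 406 to 545 TPM and Acy3 at 54.6 to 107 against 153 to 184. Ccnd1, lower in males 1 and 4, stood at 46.2 to 63.9 TPM in female Kl/Kl and 24.7 to 36.3 in female controls (0.88, SE 0.17, limma adjusted p = 0.0852).

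All 5 Kl/Kl males were also set against the 3 male controls with limma, where 316 of 8439 genes rose (3.74%) and 184 fell (2.18%). Of the 125 higher genes 20 rose and 1 fell, and of the 40 lower genes 0 rose and 5 fell. The members were chosen on the same Kl/Kl libraries, so these counts are not independent of the choice. Cyp4a14 rose by 6.11 (SE 0.53, adjusted p = 6.36e-05) and C3 by 3.65 (SE 0.49, adjusted p = 0.00167). Cyp4b1, a male-biased monooxygenase, was higher in males 1 and 4 (9.25 and 21.2 TPM) than in males 2, 3 and 5 (4.43 to 8.37) and still fell against controls at 147 and 134 TPM (-3.62, SE 0.44, adjusted p = 8.28e-04). Some leading separating genes did not pass: limma adjusted p was 0.237 for Pdk4, 0.145 for Txnip and 0.0591 for Depp1, which passed without Kl/Kl male 2 (limma adjusted p = 0.0105). The highest limma adjusted p of Depp1 among the alternative fits was 0.167. Leaving out control 3 took the 20 to 8, leaving out control 1 or 2 took it to 9 or 7, and leaving out Kl/Kl male 1 took it to 11. It was 13 at a mean of at least 5 TPM and 3 without a filter, and the 5 that fell were 2 without a filter or without control 2.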

How the data were processed

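RNA from 16 mouse kidneys had been sequenced, and the authors deposited TPM values for 30277 genes in 1 table for each sex. The submitters' processing notes name Partek and genome build mm39; no source used here gives the aligner, the counting or the use of strand. Columns of the male table each sum to 285327 and of the female table to 265288. The deposited values look like reads divided by genomic span with an assumed offset of 0.0001 read, an inference from the values: 72.6% to 75.0% of low values fell on whole reads within 0.05. Depths (21.6 to 31.8 M reads) are therefore estimates, and no count test was run. The number of libraries limits the precision.

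Values were analysed as log2(TPM + 1) for genes whose mean reached 1 TPM, in Python 3.11.15 with NumPy 2.4.6, pandas 2.3.3 and matplotlib 3.10.9. Kl/Kl was tested against control within each sex with limma 3.58.1 in R 4.3.3 (eBayes with a trend), at a Benjamini-Hochberg adjusted p under 0.05 over all genes tested. Both scripts were tested on simulated data. Groups came from the labels, and 0 columns belonged to other samples. The subgroups, the 44 gene lists and the motifs were chosen with earlier results of these data known, and the FOXO motif after the values were seen.

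Named genes are Kl, the 15 widest separating genes in each direction (regular protein-coding, at least 5 TPM in a subgroup), up to 5 separating genes of each list or else its most abundant member, and 2 genes on each side of the threshold. Not every gene of the rule is described, and some are not reported here. Same-numbered female libraries deviated together (correlations of deviations 0.227, 0.212 and 0.476), so the numbers may pair them, an inference from the values. In males these correlations were -0.131, 0.041 and -0.177. The p-values printed for single genes come from fits without the replicate block. Alternatives were other pseudocounts, filters and scalings, a replicate block and leaving out each library. Coordinates of genes are mm39 as deposited, and promoter sequences are RefSeq's on GRCm38.p6.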

Additional observations from a re-analysis of the deposited data

Results flagged for a closer look

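Among 83 named genes, the 5 male Kl/Kl libraries were searched for a library far from the rest. Hsp90ab1, a constitutive HSP90 chaperone, was flagged: male 3 was lowest at 110 TPM, and its gap to the next library was 0.750 of the whole range, above the critical value of 0.71. The other Kl/Kl males lay between 141 and 153 TPM. Chance flags about 1 in 20 groups.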

How the results depend on the processing

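The separating genes, 125 higher and 40 lower in males 1 and 4, were 205 and 113 with a pseudocount of 0.1 and 47 and 9 with a pseudocount of 5. They were 77 and 25 at a mean of at least 5 TPM, 83 and 66 after rescaling to nuclear genes, and 100 and 43 with median-of-ratios scaling. Leaving out each Kl/Kl male gave 124 to 186 higher and 39 to 69 lower; the lower count was 69 without male 1 and 62 without male 4, when a lone library has no spread of its own. A filter mean without control 3, an alternative chosen after seeing the data, gave 124 and 40. The correlation of males 1 and 4 was 0.95 by Spearman and 0.954 at a mean of at least 5 TPM, and the highest between the subgroups was 0.932 by Spearman. Genes that rose and fell in females, 5 and 4, were 3 and 2 at a mean of at least 5 TPM, 1 and 3 with median-of-ratios scaling, 3 and 11 without a filter, 0 and 2 with a pseudocount of 0.1, 0 and 3 with replicate 3, and 0 to 22 and 3 to 26 over the libraries left out, the highest without Kl/Kl replicate 4. With the replicate block they were 7 and 10. In males, 316 and 184 became 115 and 112 with the replicate block, though same-numbered male libraries were not seen to deviate together. They became 89 to 317 and 96 to 636 over the libraries left out, with 636 falling without control 3 and 89 rising without control 2. The falls were 111 at a mean of at least 5 TPM, 699 with median-of-ratios scaling and 322 without a filter. The cause of these shifts was not tested. Of 898 named-gene differences under alternatives 774 moved by less than the spread of males 2, 3 and 5, 124 by more, and 0 separating genes changed sign. Without overlap between the subgroups, a sign cannot change with another pseudocount, filter or library left out, so only the other scalings could have changed it. A filter leaves each difference as it was, and those cases are counted in the 774. Low levels limit the acute phase and neutrophil genes, where a pseudocount of 1 shrinks differences, and 2 and 3 libraries limit every subgroup value.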
